A study of Rattus norvegicus with 6 samples.

Results

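The 4 mature miRNAs described here are the 2 strands of miR-296 and the 2 strands of miR-298, chosen by name (rno-miR-298-5p, rno-miR-298-3p, rno-miR-296-5p and rno-miR-296-3p) out of 650 mature miRNAs measured in the rat trigeminal ganglion, the cluster of sensory neuron cell bodies that serves the face. Ganglia were taken from the operated side of Sprague-Dawley rats aged 8 to 10 weeks, 14 days after surgery. In the CCI-ION group (chronic constriction injury of the infraorbital nerve, 3 libraries) the left nerve was loosely tied with silk, a model of neuropathic facial pain. In the sham group (3 libraries) the nerve was exposed in the same way and left untied. Whether the 3 libraries of a group are 3 animals is not stated, so the errors and p-values below cover only the variation among these libraries, part of which could be technical. The names alone decide which rows belong, but the pair was picked with results of the comparison of CCI-ION with sham already known. The values below that compare the groups are therefore a description of the 4 strands, with no p-value. The lists of other miRNAs further below were also chosen with earlier results known, so their p-values are descriptive.

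A miRNA gene is transcribed as a hairpin, which is cut to a short duplex. Either strand (5p or 3p) can then be loaded into an Argonaute protein, where the seed, bases 2 to 8, pairs with target mRNAs. The genes for miR-296 and miR-298 lie beside the imprinted Gnas locus. In the mouse they are known to be expressed from the paternal chromosome together with Nespas, the transcript antisense to Nesp. In mouse and human cells miR-298 has been reported to repress BACE1, the beta-secretase that cleaves amyloid precursor protein and the axonal growth factor neuregulin, and miR-296 is known from human endothelial cells, where it promotes the response to growth factors. Expression from 1 parental allele was not measured in these libraries.

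All 4 deposited mature sequences matched RefSeq (build GRCr8) exactly, with U for T. They are shown with the seed in capitals, because the seed is what would tie a strand to other miRNAs.
miR-298-5p: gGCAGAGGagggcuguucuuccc
miR-298-3p: aGGAACUAgccuucucucugcu
miR-296-5p: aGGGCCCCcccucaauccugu
miR-296-3p: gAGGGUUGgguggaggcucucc
The 4 seeds differed from each other, and 0 of the other miRNAs in the table, and 0 in the RefSeq list, carried any of them. With bases 2 to 7 alone, miR-298-3p shared its run with 1 measured miRNA, miR-6323. No strand had a near copy in the table: the closest sequences differed by 8 bases for miR-298-3p, 9 for miR-298-5p, 10 for miR-296-3p and 11 for miR-296-5p, compared from the first base. No other row of the table was therefore within 1 or 2 bases of a strand in this comparison, which does not cover shifted starts. G and C made up 65.2% of miR-298-5p, 66.7% of miR-296-5p and 68.2% of miR-296-3p, against a median of 47.8% over the 650 miRNAs, and 50.0% of miR-298-3p. Of the 650, 41 had a higher share than miR-298-5p, 27 than miR-296-5p and 20 than miR-296-3p.

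The hairpins are given with their 2 mature strands in capitals, to show where the strands lie.
Mir298: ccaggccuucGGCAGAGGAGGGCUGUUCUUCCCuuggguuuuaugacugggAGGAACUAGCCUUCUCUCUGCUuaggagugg
Mir296: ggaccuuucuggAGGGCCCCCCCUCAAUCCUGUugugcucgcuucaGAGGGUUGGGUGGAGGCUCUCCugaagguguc
In the RefSeq sequence table (GRCr8) Mir298 is at chr3:183470522-183470603 and Mir296 at chr3:183470069-183470146, both on the minus strand, their starts 453 bases apart. In the same build no protein-coding gene overlaps them, and the nearest are Npepl1 on one side and Gnas on the other, Gnas starting 19044 bases beyond Mir298. The authors' reads were processed with build rn6, whose coordinates are not used here. Folded with RNAfold, Mir298 had 33 base pairs and a minimum free energy of -47.8 kcal per mol, or -0.58 per base. Mir296 had 30 base pairs and -40.5 kcal per mol, or -0.52 per base. The median over the 419 rat hairpins in RefSeq was -0.43 per base, and 5.01% of them were more stable per base than Mir298 and 13.8% than Mir296.

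Total miRNA counts ranged from 6420434 to 11014970 in the CCI-ION libraries and from 10084327 to 12560545 in the sham libraries. The libraries numbered 1 of both groups stood apart: the total reads behind the deposited RPM values were 24259518 in CCI-ION library 1 and 24025572 in sham library 1, against 13793797 to 15228984 in the other 4. Summed erythroid markers (5 miRNAs, miR-451, miR-144 and miR-486) stood at 799.0, 468.6 and 407.7 CPM in CCI-ION libraries 1, 2 and 3, against 771.0, 285.4 and 403.3 CPM in sham libraries 1, 2 and 3, so they too were high in the libraries numbered 1. Summed skeletal muscle markers (6 miRNAs) were lowest in those libraries, at 3345 CPM in CCI-ION library 1 and 5202 CPM in sham library 1, against 6387 to 10680 CPM in the other 4. So were the 2 endothelial miRNAs (10951 CPM in CCI-ION library 1 and 10372 CPM in sham library 1, against 13557 to 15329 CPM). Sensory neuron markers were present, as the labelled tissue would have: miR-182, miR-183 and miR-96, abundant in sensory neurons, summed to 34705 to 45643 CPM in CCI-ION and 35140 to 44702 CPM in sham. That sum was lowest in library 1 of each group. Levels here are CPM of the miRNA counts, scaled with TMM factors, and counts are per mature miRNA of 21 to 23 bases.

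The strands were of middling to low abundance. Over all 6 libraries miR-298-5p averaged 10.87 CPM and ranked 324 of 650, miR-296-5p averaged 3.53 CPM and ranked 392, miR-296-3p averaged 2.74 CPM and ranked 406, and miR-298-3p averaged 0.892 CPM and ranked 462. miR-298-5p lay above miR-296-5p in 6 of 6 libraries, by 1.56 ± 0.33 on the log2 scale (SD, n = 6). miR-296-5p and miR-296-3p did not differ beyond their spread: the first was higher in 4 of 6 libraries, by 0.43 ± 0.45 on the log2 scale. miR-296-3p lay above miR-298-3p in 6 of 6 libraries, by 1.62 ± 0.46. In the order of mean levels, the neighbours of miR-298-5p were miR-1843a-3p (10.91 CPM) just above it and miR-139-3p (10.58 CPM) just below. Each of them was higher than miR-298-5p in 4 of the 6 libraries, so the 3 levels were not separated.

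**Figure D1:**
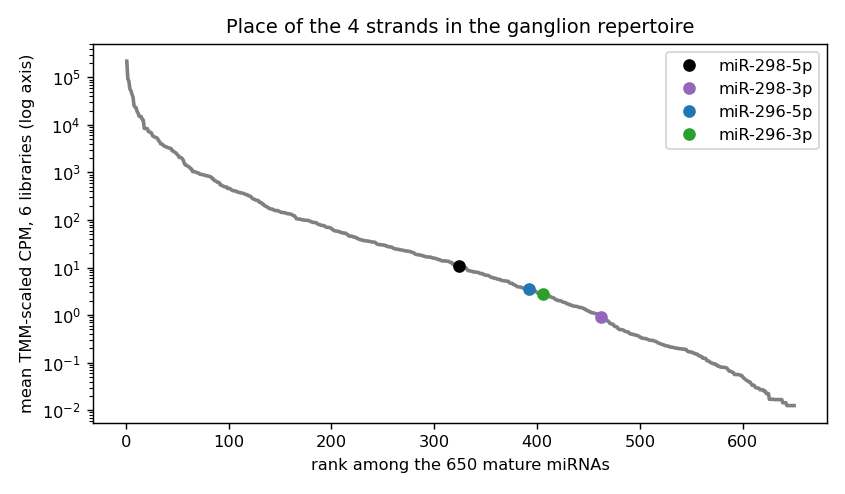
Mean level of each of the 650 mature miRNAs over 6 libraries (TMM-scaled CPM, log axis) against its rank, with the 4 strands marked. miR-298-5p sits near the middle of the ranking at 10.87 CPM and miR-298-3p lowest of the 4 at 0.892 CPM.

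miR-298-5p was highest in a single injured ganglion library. Its counts were 234, 53 and 73 in CCI-ION libraries 1, 2 and 3, against 139, 76 and 85 in sham libraries 1, 2 and 3. Scaled, these were 20.2, 8.53 and 9.82 CPM in CCI-ION, against 10.44, 7.74 and 8.53 CPM in sham. CCI-ION library 1 stood above all others, and the exact 95% Poisson interval of its count (17.7 to 22.9 CPM) did not reach that of any other library, the highest of which ended at 12.35 CPM. CCI-ION libraries 2 and 3 lay within the sham range of 7.74 to 10.44 CPM, so the groups overlapped. The mean was 12.8 ± 6.38 CPM in CCI-ION and 8.90 ± 1.39 CPM in sham (SD, n = 3 each), a ratio of 1.44, and the ratio was 1.13 without the libraries numbered 1.

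The other strand of the same hairpin, miR-298-3p, was scarce. Its counts were 12, 6 and 4 in CCI-ION libraries 1, 2 and 3, against 20, 7 and 6 in sham libraries 1, 2 and 3. Its level averaged 0.846 ± 0.269 CPM in CCI-ION and 0.939 ± 0.491 CPM in sham (SD, n = 3 each), with overlapping groups, and it was highest in sham library 1 at 1.502 CPM. At 4 to 20 counts a library it was little above the limit of 3 counts that a count of 0 allows (0.239 to 0.467 CPM over the libraries, before TMM scaling), and it fell below the filter on low counts, so no fold change was fitted. Intervals and limits cover counting error only, because reads without molecular identifiers are not independent molecules.

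miR-296-5p did not separate the groups. Its counts were 52, 17 and 30 in CCI-ION libraries 1, 2 and 3, against 49, 31 and 31 in sham libraries 1, 2 and 3. The levels were 4.48, 2.73 and 4.04 CPM in CCI-ION, against 3.68, 3.16 and 3.11 CPM in sham. The sham libraries lay inside the range of the CCI-ION libraries. The means were 3.75 ± 0.908 CPM in CCI-ION and 3.32 ± 0.316 CPM in sham (SD, n = 3 each). miR-296-3p had 55, 18 and 17 counts in CCI-ION libraries 1, 2 and 3, against 40, 17 and 18 in sham libraries 1, 2 and 3. This gave 4.74, 2.90 and 2.29 CPM in CCI-ION, against 3.00, 1.73 and 1.81 CPM in sham, with means of 3.31 ± 1.28 and 2.18 ± 0.715 CPM for CCI-ION and sham (SD, n = 3 each). Each CCI-ION library was above the sham library of the same number, by 1.58, 1.67 and 1.27 times for numbers 1, 2 and 3 (1.36, 1.15 and 1.04 times on the deposited RPM scale), but the groups overlapped because sham library 1 was higher than CCI-ION libraries 2 and 3.

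**Figure D2:**
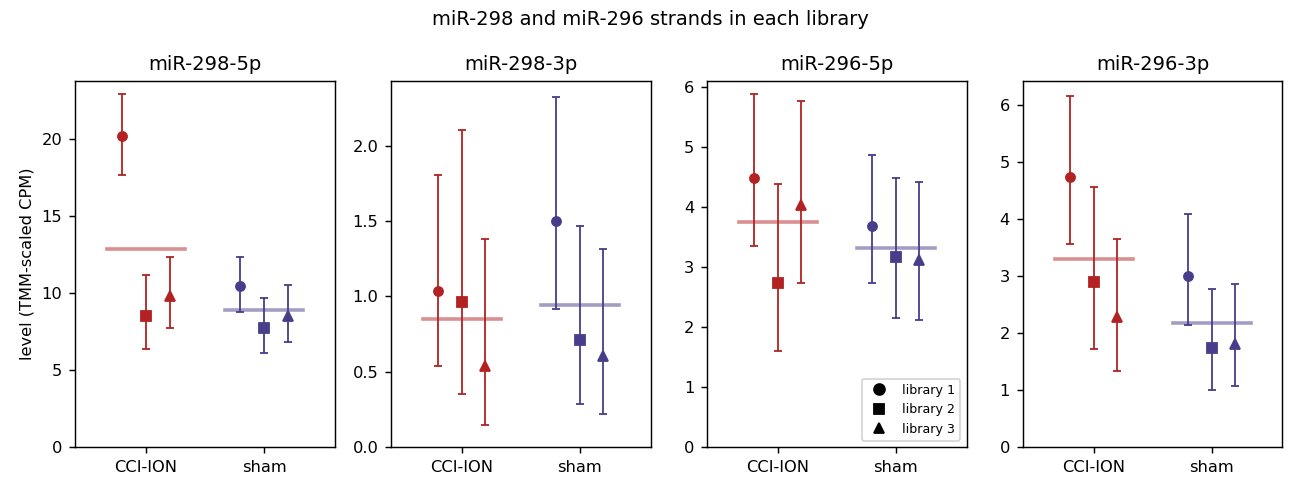
Level (TMM-scaled CPM) of each strand in each library, CCI-ION left and sham right, with exact 95% Poisson intervals of the count as bars and the group mean as a horizontal line; marker shapes give the library number. miR-298-5p in CCI-ION library 1 (20.2 CPM) is the 1 point whose interval lies clear of the others, and the groups overlap for all 4 strands.

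Library 1 of each group was the higher one for every strand, but by different amounts. For miR-298-5p, library 1 was 2.20 times the mean of the other 2 in CCI-ION and 1.28 times in sham. For miR-298-3p these ratios were 1.38 in CCI-ION and 2.29 in sham, for miR-296-3p 1.83 in CCI-ION and 1.70 in sham, and for miR-296-5p 1.32 in CCI-ION and 1.17 in sham. Summed leukocyte markers (8 miRNAs, miR-142, miR-223, miR-155 and miR-150) were also highest in CCI-ION library 1. They stood at 337.7, 296.9 and 312.6 CPM in CCI-ION libraries 1, 2 and 3, against 273.9, 229.4 and 240.3 CPM in sham. Summed neuronal markers (16 miRNAs, among them miR-124, miR-9a and miR-129) were lowest in CCI-ION library 1. They stood at 17291, 21386 and 21509 CPM in CCI-ION libraries 1, 2 and 3, against 21237, 25386 and 25249 CPM in sham. Library 1 of each group thus had the highest leukocyte sum and the lowest neuronal sum of its group. The part of depth or of these cell types in the miR-298-5p level was not tested. No marker of the 5 lists of other cell types and neurons given here was at 0 in all libraries, while 1 erythroid, 2 leukocyte and 2 neuronal markers were at 0 in at least 1. In whole tissue, fewer cells of a type and less RNA per cell cannot be told apart.

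The 2 hairpins differed in how their counts were split between the strands. These are shares of sequencing counts, and loading of a strand into Argonaute was not measured. The 5p strand held 95.1%, 89.8% and 94.8% of the miR-298 counts in CCI-ION libraries 1, 2 and 3, against 87.4%, 91.6% and 93.4% in sham libraries 1, 2 and 3. It thus dominated in every library, with a mean of 93.3% ± 2.97 in CCI-ION and 90.8% ± 3.07 in sham (SD, n = 3 each), and the groups overlapped. For miR-296 the 5p strand held 48.6%, 48.6% and 63.8% in CCI-ION libraries 1, 2 and 3, against 55.1%, 64.6% and 63.3% in sham libraries 1, 2 and 3. The means were 53.7% ± 8.80 in CCI-ION and 61.0% ± 5.16 in sham (SD, n = 3 each). The exact Clopper-Pearson 95% interval included an even split of the 2 strands in every library for miR-296 and in none for miR-298. For miR-296 in CCI-ION library 2, with 35 counts of both strands, that interval ran from 31.4% to 66.0%, so a shift between groups of the size of the difference in means was not detectable at this depth.

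**Figure D3:**
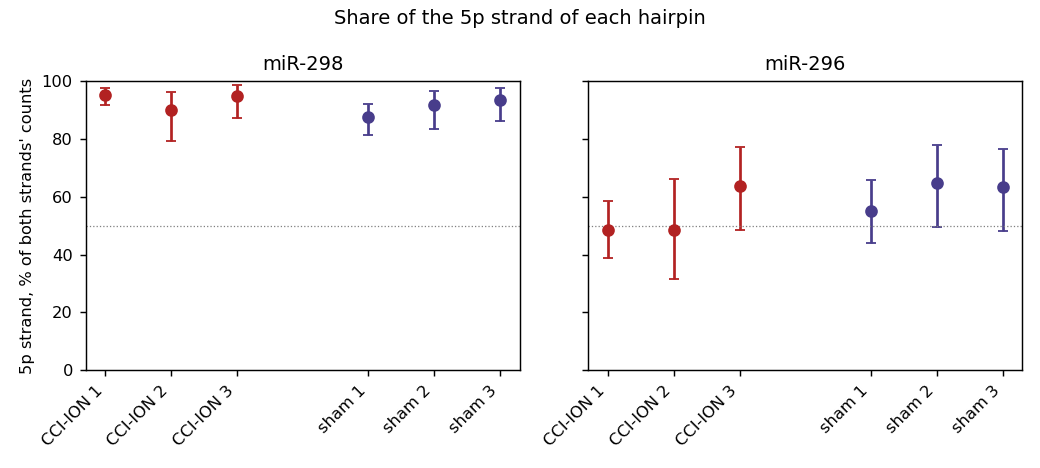
Share of the 5p strand among the counts of both strands of miR-298 (left) and miR-296 (right) in each library, with exact 95% binomial intervals; the dotted line marks an even split. The miR-298 shares lie between 87.4% and 95.1%, the miR-296 shares between 48.6% and 64.6%.

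Both hairpins were detected in every library. miR-298 held 69.7%, 62.8% and 62.1% of the counts of all 4 strands in CCI-ION libraries 1, 2 and 3, against 64.1%, 63.4% and 65.0% in sham libraries 1, 2 and 3. CCI-ION library 1 was the highest, and its interval (64.6% to 74.4%) overlapped those of the other 5 libraries, so the shares were not separated at this depth. The ratio of miR-298-5p to miR-296-5p was 4.50, 3.12 and 2.43 in CCI-ION libraries 1, 2 and 3, against 2.84, 2.45 and 2.74 in sham libraries 1, 2 and 3. All 4 strands together stood at 30.4, 15.1 and 16.7 CPM in CCI-ION, against 18.6, 13.3 and 14.1 CPM in sham. The locus total was therefore higher in the CCI-ION library of each number (3 of 3, and 1 of 3 on the RPM scale), while CCI-ION libraries 2 and 3 lay within the sham range.

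On the deposited RPM scale, whose denominator counts more than the miRNA reads, miR-298-5p stood at 9.65, 3.78 and 5.29 RPM in CCI-ION libraries 1, 2 and 3, against 5.79, 4.99 and 5.61 RPM in sham libraries 1, 2 and 3. Here CCI-ION library 2 was lower than every sham library, and the CCI-ION library was higher than the sham library of its number in 1 of 3 cases, against 3 of 3 on the CPM scale. miRNA counts made up 45.4%, 45.8% and 55.8% of that denominator in CCI-ION libraries 1, 2 and 3, against 52.3%, 66.6% and 66.6% in sham libraries 1, 2 and 3. miR-296-5p was nearly level in sham on this scale, at 2.04, 2.04 and 2.05 RPM, against 2.14, 1.21 and 2.17 RPM in CCI-ION libraries 1, 2 and 3.

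In an edgeR quasi-likelihood fit across the whole table, the log2 fold change of CCI-ION over sham was 0.54 ± 0.35 (SE) for miR-298-5p, 0.61 ± 0.38 for miR-296-3p and 0.19 ± 0.27 for miR-296-5p. The median over the 463 tested miRNAs was 0.01. The fit called 0 of the 3 tested strands (adjusted p under 0.05), where it called 0.648% of all tested miRNAs. With the replicate number as a block it called 0 of 3, where it called 11.7% of all. limma-voom called 0 of 3, where it called 0.648% of all. DESeq2 gave an adjusted p for 1 of the 3 strands, miR-298-5p, and did not call it, where it called 3.40% of the 382 miRNAs with an adjusted p. At an unadjusted p under 0.05 the count was 0 in the fit without the block, 0 with DESeq2, 0 with limma-voom and 1 (miR-298-5p) with the block. The shares of all miRNAs at that level were 9.94%, 9.07%, 10.4% and 21.4% in the same order. Because the strands were chosen with this contrast known, nothing is read from these counts. The groups did not overlap for 0 of the 3 tested strands, where they did not overlap for 13.8% of all tested miRNAs. miR-298-5p varied more between libraries than most miRNAs of the table. Its biological coefficient of variation in the fit was 31.3%, higher than that of 85.1% of the tested miRNAs, whose median was 21.9%. The coefficient was 31.3% for miR-296-3p and 22.5% for miR-296-5p. The spread of miR-298-5p lay mostly in CCI-ION, where the SD was 49.7% of the mean CPM, against 15.6% in sham.

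These fold changes moved with single libraries. For miR-298-5p the value was 0.04 ± 0.26 without CCI-ION library 1 and 0.17 ± 0.24 without both libraries numbered 1. For miR-296-3p it was 0.22 ± 0.39 without CCI-ION library 1 and 0.93 ± 0.41 without sham library 1, and 0.54 ± 0.36 without both libraries numbered 1. For miR-296-5p it was 0.03 ± 0.32 without CCI-ION library 1 and 0.37 ± 0.25 without CCI-ION library 2. With upper quartile factors miR-296-5p was at 0.29 ± 0.33, where the median of all tested miRNAs was 0.09. With libraries scaled to the RPM denominators, the values were 0.20 ± 0.33 for miR-298-5p, 0.28 ± 0.36 for miR-296-3p and -0.14 ± 0.32 for miR-296-5p, where the median of all tested miRNAs was -0.34. The sign of miR-296-5p thus turned with the scale, while all 3 strands stayed above the median of the table.

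**Figure D4:**
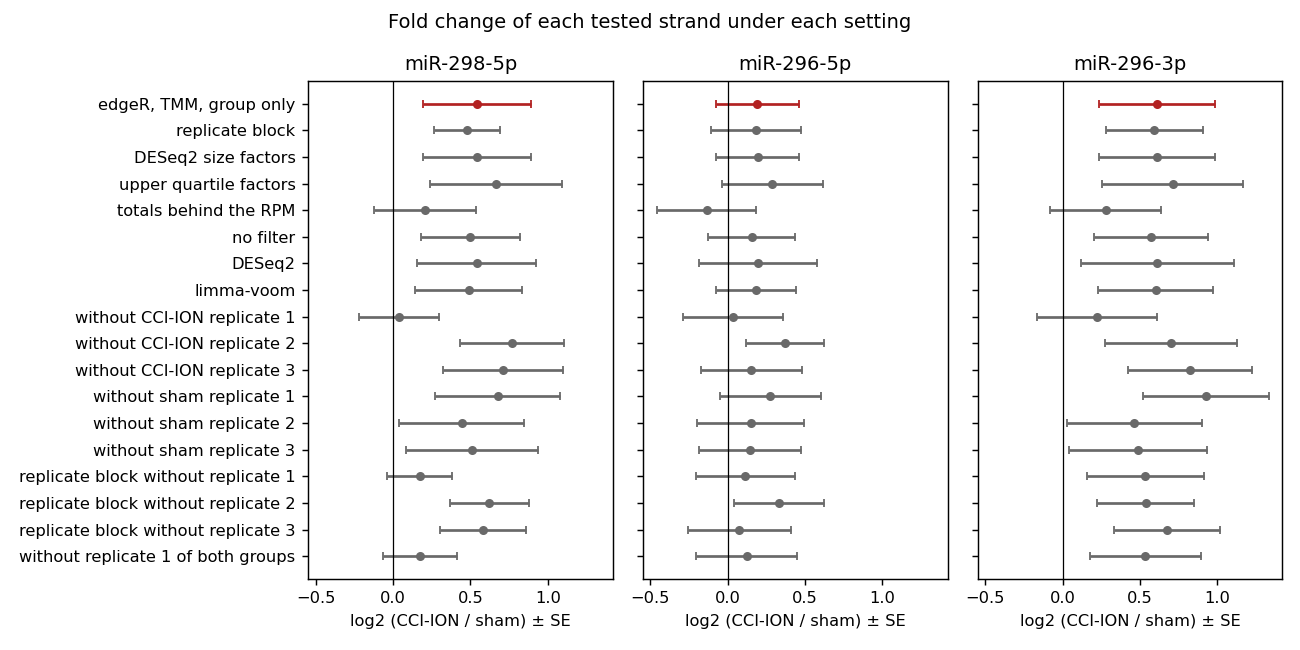
Log2 fold change of CCI-ION over sham (± SE) for the 3 tested strands under each normalization, tool and left-out library; the red point is the edgeR fit on group alone. miR-298-5p falls to 0.04 when CCI-ION library 1 is left out, and miR-296-5p is negative only, among these settings, when libraries are scaled to the RPM denominators.

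The miRNAs whose log2 CPM followed miR-298-5p most closely over the 6 libraries, among 462 others tested, were miR-543-3p (Pearson r = 0.98, Spearman rho = 0.94), let-7a-5p (r = 0.98, rho = 0.94), miR-423-5p (r = 0.98, rho = 1), miR-99b-3p (r = 0.95, rho = 0.77) and let-7c-5p (r = 0.94, rho = 0.83). These r describe points that share libraries, depth and scaling, and a search over 462 miRNAs with 6 points finds high values by its nature, so no p-value is given. Without sham library 2 and CCI-ION library 1, the 2 farthest from the median of miR-298-5p, r was 0.95 for miR-543-3p, 0.99 for let-7a-5p, 0.94 for miR-423-5p, 0.92 for miR-99b-3p and 0.67 for let-7c-5p. Of these, miR-543-3p belongs to the maternally expressed Dlk1-Dio3 imprinted cluster. It stood at 54.4, 35.4 and 39.0 CPM in CCI-ION libraries 1, 2 and 3, against 40.1, 31.5 and 33.3 CPM in sham libraries 1, 2 and 3, so it too was highest in CCI-ION library 1, by a smaller margin. let-7a-5p and let-7c-5p differ by at most 2 bases from each other and from other let-7 members, and their counts are uncertain.

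With each library taken as its deviation from its group mean, which leaves out the difference between groups, the closest were miR-490-5p (r = 0.98), miR-543-3p (0.98), miR-125a-3p (0.98), miR-3473 (0.98) and let-7a-5p (0.98), over 6 libraries. By this measure 45 of the 462 had r over 0.9, against 13 on levels. Taking out the group means leaves fewer independent values, so these counts cannot be compared directly. miR-543-3p and let-7a-5p were among the 5 closest by both measures. For the other 3, r on levels without sham library 2 and CCI-ION library 1 was 0.24 (miR-490-5p), 0.77 (miR-125a-3p) and 0.86 (miR-3473). Levels include the difference between groups, so these values differ from the r on deviations by more than the libraries left out. miR-490-5p stood at 20.6 CPM in CCI-ION library 1, against 15.1 and 15.5 CPM in CCI-ION libraries 2 and 3, and at 20.3, 19.03 and 20.0 CPM in sham libraries 1, 2 and 3. The hairpin neighbours were not among the 5 closest: miR-296-3p had r = 0.88 on levels (place 22 of 462) and miR-296-5p 0.81 (place 46 of 462). Without sham library 2 and CCI-ION library 1, r on levels was 0.43 for miR-296-3p and 0.85 for miR-296-5p. These strands had 17 to 55 counts a library, and the part of counting error in their r was not tested. Their places alone do not show that they follow miR-298-5p less than more abundant miRNAs do.

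**Figure D5:**
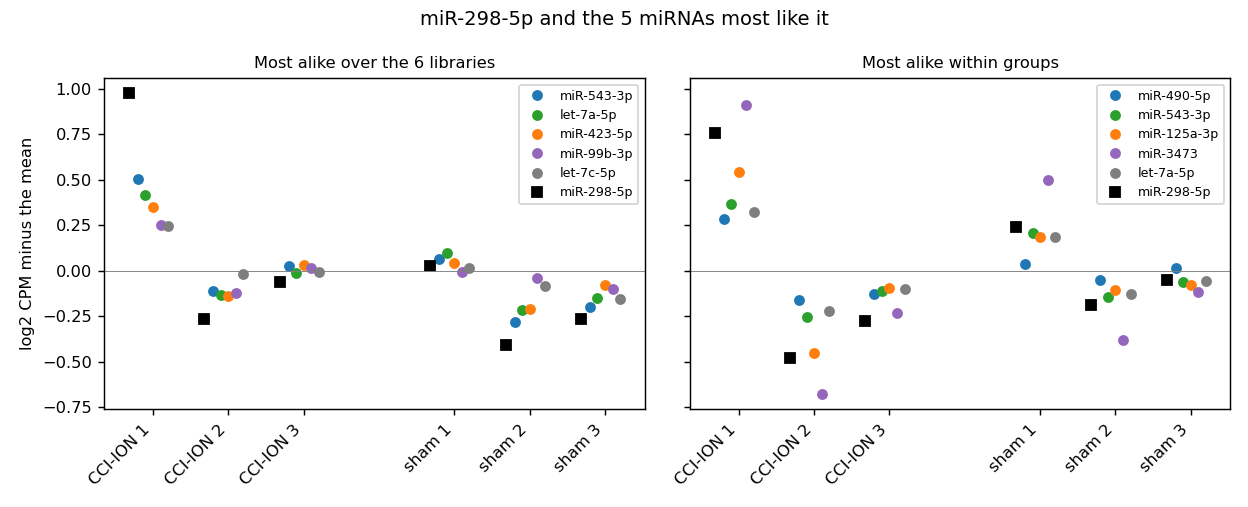
Log2 CPM in each library minus the mean over the 6 libraries (left) or minus the group mean (right) for miR-298-5p (black squares) and the 5 miRNAs with the highest r; points of a library are spread sideways for legibility. In both panels CCI-ION library 1 is the highest point of miR-298-5p.

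A list of miRNAs from 4 smaller imprinted loci (Mest, Igf2, H19 and Sfmbt2), which leaves out the large Dlk1-Dio3 cluster, had 9 members in the table. Of these, 4 passed the filter on low counts. edgeR called 0 of 4 without the block, where it called 0.648% of all tested miRNAs, and 0 of 4 with it, where it called 11.7%. limma-voom called 0 of 4 (0.648% of all), and DESeq2 called 0 of the 2 for which it gave an adjusted p (3.40% of all). At an unadjusted p under 0.05 the counts were 0 without the block, 1 with it (miR-483-3p), 0 with DESeq2 and 1 with limma-voom (miR-483-3p), where the shares over all miRNAs were 9.94%, 21.4%, 9.07% and 10.4%. The median of the 4 was 0.32, against 0.01 over all tested miRNAs. Over all 9 members with no filter it was -0.01 (4 of 9 positive), against -0.04 over the table, and for the 4 on the RPM denominators it was -0.01, against -0.34 over all tested. miR-335, from an intron of the paternally expressed Mest gene, was the most abundant of these 9 at 45.8 ± 18.6 CPM in CCI-ION and 45.3 ± 15.7 CPM in sham (SD, n = 3 each), and its log2 fold change was 0.01 ± 0.38. It was lowest in the libraries numbered 1 (26.4 CPM in CCI-ION and 27.5 CPM in sham), where the Gnas-locus strands were highest. miR-466c-5p, whose family is known in the mouse from the paternally expressed Sfmbt2 gene, stood at 5.72 ± 1.43 CPM in CCI-ION and 4.62 ± 1.03 CPM in sham (log2 fold change 0.29 ± 0.29).

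The strands of miR-483, which lies in the Igf2 gene, were low. miR-483-3p had 18, 10 and 18 counts in CCI-ION libraries 1, 2 and 3, against 9, 14 and 10 in sham libraries 1, 2 and 3. It averaged 1.86 ± 0.487 CPM in CCI-ION and 1.03 ± 0.375 CPM in sham (SD, n = 3 each). The groups did not overlap on this scale, as was so for 13.8% of all tested miRNAs, and nothing is read from this at such low counts. Its log2 fold change of 0.85 ± 0.38 was not called (edgeR adjusted p = 0.496, and 0.144 with the block). It was named after its values were seen, so these p-values are descriptive. The other 5 members, miR-297, miR-466b-5p, miR-466d and the 2 strands of the H19 miRNA miR-675, had 0 to 13 counts a library and were not tested.

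miR-298 is 1 of several miRNAs reported in human or mouse cells to repress BACE1. Of 10 others in the table, 9 were tested, and edgeR called 0 of 9 without the block (0.648% of all tested miRNAs), with 1 at an unadjusted p under 0.05 (9.94% of all). limma-voom called 0 of 9 (0.648% of all) and DESeq2 1 of 9 (3.40% of all). With the block edgeR called 1 lower and 0 higher, where it called 5.62% of all tested miRNAs lower. The list median was -0.07 without the block, with 4 of 9 positive, against 0.01 over all tested miRNAs. The sign of this median was not stable. It was 0.06 without CCI-ION library 1, 0.03 without sham library 2 and 0.02 with upper quartile factors (6 of 9 positive in each). The medians of all tested miRNAs in these settings were -0.02, 0.01 and 0.09. On the RPM denominators the list median was -0.44 (0 of 9 positive), where the median of all was -0.34. The called member was miR-124-3p, the classical neuronal miRNA, at 191.3, 190.5 and 158.2 CPM in CCI-ION libraries 1, 2 and 3, against 242.3, 260.8 and 249.9 CPM in sham libraries 1, 2 and 3. Its log2 fold change was -0.48 ± 0.14 without the block (edgeR adjusted p = 0.316) and -0.48 ± 0.11 with it (edgeR adjusted p = 0.000927). The fit with the block did not call it without the libraries numbered 2 (edgeR adjusted p = 0.0569) or 3 (0.299). These p-values are descriptive, because the list was chosen with earlier results known. The summed neuronal markers given above, of which miR-124-3p is 1, were also lower on average in CCI-ION. Within CCI-ION that sum was lowest in library 1, where miR-124-3p (191.3 CPM) was level with library 2 (190.5 CPM). The part of neuron content in the miR-124-3p level was not tested.

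The 2 most abundant of these BACE1 repressors far exceeded miR-298-5p. miR-29a-3p, known for restraining collagen genes, stood at 3408 ± 684 CPM in CCI-ION and 3603 ± 313 CPM in sham (log2 fold change -0.08 ± 0.17); it is 1 or 2 bases from miR-29c-3p, so its counts are uncertain. miR-328a-3p, reported in the mouse together with miR-298 as a repressor of Bace1, stood at 3219 ± 747 CPM in CCI-ION and 3169 ± 61.6 CPM in sham (log2 fold change 0.02 ± 0.19; SD, n = 3 each). The difference between groups was smaller than the spread of the CCI-ION libraries for both.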

How the data were processed

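The authors deposited whole-number raw counts for 650 mature miRNAs and RPM values for each library. The submitters' processing notes name cutadapt 1.14, Bowtie 1.1.1 and build rn6, but no read counter or miRNA annotation. A TruSeq RNA kit is named, per the labels' protocols, with no step that selects small RNA. The deposited RPM values were 100% whole reads (within 0.01) of 1 constant per library, and edgeR on them made 3 calls, as on the counts. Other file columns give the mature length.

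Members and lists were chosen with earlier results of these data known. Counts were tested with edgeR 4.0.16 (robust quasi-likelihood, TMM, filterByExpr) in R 4.3.3, with Benjamini-Hochberg adjustment; 463 miRNAs were tested and 187 left out. DESeq2 1.42.0 and limma 3.58.1 were alternatives. Log2 CPM used a prior count of 2. Hairpins were folded with ViennaRNA 2.7.2. The procedure was also run on simulated counts drawn independently for each library. That run held no effect of the library number, so it does not test the fits on data where same-numbered libraries deviate together. Named miRNAs are the 4 strands, list members that were called, the 2 highest of each list, the 5 most like miR-298-5p by either measure and its neighbours in level; miR-483-3p, and the untested list members, were named after their values were seen.

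Same-numbered libraries deviated together from their group means (r = 0.664, 0.591 and 0.457 for numbers 1, 2 and 3). The main fit used group alone, without pairing, and the number entered only the alternative fits with the block. The labels do not say what a number stands for.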

Additional observations from a re-analysis of the deposited data

How the results depend on the processing

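Leaving out 1 library moved the log2 fold change of miR-298-5p between 0.040 (without CCI-ION library 1) and 0.77 (without CCI-ION library 2); with the replicate block it was 0.48 ± 0.22, and 0.17 to 0.62 without both libraries of 1 number. Its other alternatives kept the direction. miR-296-5p with the block was 0.18, and 0.33 and 0.07 without the libraries numbered 2 and 3. The mean level of miR-298-5p was 6.24 in CCI-ION and 5.46 in sham as RPM, and leaving out 1 library gave 9.17 to 15.0 CPM in CCI-ION and 8.13 to 9.49 CPM in sham. The number of miRNAs called over the table was 3. It was 54 with the replicate block, 13 with DESeq2, 6 with the totals behind the RPM and 6 with no filter. It was 1 to 7 without single libraries, 45, 31 and 5 with the block when both libraries numbered 1, 2 or 3 were left out, and 12 without both libraries numbered 1, a choice made after seeing the data. The BACE1 list had 1 call with the replicate block, 1 with DESeq2 and 1 with the block when number 1 was left out, each miR-124-3p. The list of the Mest, Igf2, H19 and Sfmbt2 loci, with 4 members tested (9 with no filter), had 0 calls in every alternative run. The block changed no other call on the strands or lists. The causes were not tested. Counts of 4 to 55 limit what can be seen for miR-298-3p and both strands of miR-296.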
